A study of Mus musculus with 185 samples.

Results

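The PDGF receptors and ligands were followed here as mRNA in single cells of the adult mouse heart. The members were chosen by name and were 7 mouse genes, namely the receptor genes Pdgfra, Pdgfrb and Pdgfrl and the ligand genes Pdgfa, Pdgfb, Pdgfc and Pdgfd. Of the 17171 genes with a row in the deposited table, 6 belong to this family. Pdgfb was not among the rows analysed here.

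Non-myocyte cells were sorted from hearts of C57BL/6 mice (backcross N=6) about 5 months of age, and single cells were captured on a Fluidigm C1 chip and sequenced. The mice carried a tamoxifen-inducible MerCreMer Cre in the Postn gene (periostin, a matrix protein made by activated fibroblasts) or in the Tcf21 gene (a transcription factor of resident fibroblasts), together with an eGFP reporter in the Rosa26 locus that Cre switches on for good. The study asked how fibroblasts and myofibroblasts of the infarct relate to the fibroblasts of the uninjured heart. The labels give 9 classes of cells. The cell names carry 4 date-like prefixes, which are read here as 4 captures.

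All classes were sorted as CD31- and CD45-, which removes endothelial and blood cells, with dead cells gated out. The capture of uninjured hearts held the resident cells. These were 17 Tcf21-traced cells of Tcf21 MCM/+; R26-eGFP mice, 12 CD31- CD45- cells classed as negative for Postn mRNA, and 3 Tcf21-positive cells and 1 CD31- CD45- cell classed as positive for it. The other captures came from hearts with myocardial infarction after permanent ligation of the left coronary artery. The traced cells of the infarct were taken a week after the injury; the time for the scar capture is not given. Tracing needs tamoxifen, which was given to uninjured Tcf21 tracer mice as well as to mice with infarcts. The periostin tracer capture, from Postn MCM/+; R26-eGFP mice, held 27 Postn-traced cells, 24 cells negative for Postn and 6 Postn-positive cells that did not carry the tracer. The Tcf21 tracer capture held 44 Tcf21-traced cells and 19 untraced Postn-positive cells. The scar capture held 29 untraced cells of the scar and 3 untraced Postn-positive cells. The label of the Postn-positive infarct cells names no tracer, and they are called untraced here for that reason. The tracer mice differ between captures, so this class may pool cells that lack different tracers. The Postn tracer allele is a knock-in, so those mice keep 1 intact Postn gene, and the tracer marks a cell only where the gene was active while tamoxifen was present. The study describes the resident cells as coming from hearts without infarction, although another of its legends places CD31- CD45- control cells in the region remote from the infarct.

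PDGF ligands are secreted dimers that bring a pair of receptor tyrosine kinases together at the cell surface, after which the receptors phosphorylate each other and recruit Src-family kinases, phosphatidylinositol 3-kinase, phospholipase C gamma and the Ras-MAPK cascade. PDGF-A engages only the alpha receptor, PDGF-C the alpha receptor and mixed dimers, PDGF-B every receptor dimer, and PDGF-D mainly the beta receptor. In the heart, PDGFRα is a marker of interstitial fibroblasts and PDGFRβ of pericytes and other mural cells.

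A legend of the study says that the cells of each group came from more than 1 mouse. The mouse that a cell came from is not given, which leaves 1 sample per class. Classes could therefore not be tested against each other. Any SD is between cells, and percentages of cells carry exact 95% intervals (Clopper-Pearson) for counting error only. Values are log2 (TPM+1), where TPM corrects for transcript length and sums to between 999257 and 1000000 in each cell, and a gene was called detected above 5 TPM. TPM keeps no record of read depth, which was therefore not measured. The number of genes above 5 TPM is given instead, and it can vary with depth or with the cells. It ran from 141 to 5419 per cell, with class medians of 2264 in resident Tcf21-traced, 2342 in activated Postn-negative, 3134 in activated Tcf21-traced and 3643 in activated Postn-traced cells. A difference between an infarct class and a resident class is also a difference between captures, and the 2 cannot be told apart.

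No label names a cell as a fibroblast. From a list of 8 fibroblast genes that holds no PDGF member, at least 3 were detected in 183 cells, and fewer in the other 2, and the most abundant, Dcn, averaged 11632 TPM. Cells with pericyte or Schwann cell genes also held 3 or more of them, so the list does not separate fibroblasts from other cells. Many of the labels name Postn, including that of the Postn-traced cells, and Postn-positive cells form classes of their own, so its level is no check of the labels. Some cells stood apart. In the scar capture 5 cells had fewer than 300 genes above 5 TPM. Across all captures 8 cells held 3 or more markers of a cell type other than fibroblasts or smooth muscle, among them 1 resident CD31- CD45- cell with 6 of 7 myeloid genes, and 2 cells with at least 3 of 7 pericyte genes. Of the endothelial list, of which 6 genes have values, no cell had more than 1. Differences between classes were also computed without these cells.

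Pdgfra, the gene of the receptor that binds PDGF-A, was the family member found in most cells. Of all cells, 141 had it above 5 TPM (76.2%, interval 69.4% to 82.2%), and 563 of the 17171 genes were detected in more. In GENCODE annotation of the mouse genome build GRCm38, the build that the mm10 alignment of the study uses, the gene lies on the plus strand at chr5:75152292-75198215. The RefSeq promoter table, which has windows for 4 of the 7 members, gives its start region as 300 bases on the plus strand at chr5:75152001-75152300, shown because this receptor gene was detected in most cells.
Pdgfra: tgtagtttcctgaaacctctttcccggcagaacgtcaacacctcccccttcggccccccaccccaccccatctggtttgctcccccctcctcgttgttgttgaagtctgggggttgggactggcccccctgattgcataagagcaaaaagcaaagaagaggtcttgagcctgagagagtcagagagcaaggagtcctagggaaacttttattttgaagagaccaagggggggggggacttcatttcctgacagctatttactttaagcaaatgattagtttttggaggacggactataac
Both strands were searched for the GC box GGGCGG and for the TATA box TATAAA, and any match would stand in capitals. Neither is in this window, while 35.7% and 13.6% of all 32851 promoter windows hold them. The window has a G+C content of 51%, higher than 43% of the promoter windows.

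By mean and median over all cells of a class, resident Tcf21-traced cells had the most Pdgfra mRNA. Their lowest cell was at 3.43, the median at 8.79 and the highest at 10.08 on the log2 (TPM+1) scale, so that all 17 were above the minimum. Activated Tcf21-traced cells ran from 0.00 through a median of 4.71 to 8.41. Postn-traced cells of the infarct ran from 0.00 through 5.99 to 9.60. The median of either infarct class thus lay below that of the resident class, although single cells overlapped over most of the range.

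Class means gave the same order with its spread. The mean level was 7.66 ± 2.08 (SD between cells, n = 17) in resident Tcf21-traced cells and 4.71 ± 2.21 (n = 44) in activated Tcf21-traced cells, a difference of -2.95 log2 units. This is more than the SD of either class, and only 0.12% of the 13311 genes compared had a lower difference. Those genes were not matched to Pdgfra for detection. The difference ran against the drift of all genes, whose median difference was 0.27. Postn-traced cells, at 5.79 ± 2.35 (n = 27), differed from resident Tcf21-traced cells by -1.87 log2 units, which is less than the SD of either class.

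The decline was one of level more than of detection. Pdgfra was detected in 39 of 44 activated Tcf21-traced cells (88.6%, interval 75.4% to 96.2%) and in 24 of 27 Postn-traced cells (88.9%, interval 70.8% to 97.6%), against 17 of 17 resident cells (lower bound 80.5%), and these intervals overlap. Among cells above 5 TPM alone, the difference in level was still -2.42 log2 units for activated and -1.24 for Postn-traced cells.

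Resident CD31- CD45- Postn-negative cells were more mixed. In them Pdgfra was at 0.00 in 3 cells and between 4.82 and 10.41 in the other 9, with a mean of 5.81 ± 4.0 (n = 12). One of the 3 cells at 0 was the cell with 6 myeloid genes. Resident Tcf21-traced cells differed from them by 1.85 log2 units in the mean, by 1.32 without the cell with myeloid genes, and by -0.07 when both classes were limited to cells with 2000 to 4000 genes, a window chosen after seeing the data. Among cells above 5 TPM the mean was 7.66 in resident Tcf21-traced and 7.75 in resident CD31- CD45- Postn-negative cells. Linear means over all cells were 388 and 346 TPM in the same order. Activated Postn-negative cells, with a lowest cell at 1.53, a median of 6.74 and a highest of 9.27, had a mean of 6.28 ± 2.42 (n = 24).

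As means over all cells, Pdgfra was lower in the untraced Postn-positive cells and the scar cells than in activated Tcf21-traced cells; among cells above 5 TPM the sign turned, with differences of 0.13 in the Tcf21 tracer capture and 1.11 for the scar. In the Tcf21 tracer capture, untraced Postn-positive cells ran from 0.00 through a median of 2.67 to 8.66, with a mean of 3.22 ± 2.90 (n = 19), and 10 of 19 were above 5 TPM (52.6%, interval 28.9% to 75.6%). The Tcf21-traced cells of the same capture had 39 of 44 above 5 TPM, and the intervals overlap only between 75.4% and 75.6%. Untraced scar cells had 14 of 29 (48.3%, interval 29.4% to 67.5%) and a mean of 3.32 ± 3.23. Leaving out the 7 cells of the scar capture with under 50% of its median number of genes, the scar mean differed from that of activated Tcf21-traced cells by -0.53 rather than -1.40 log2 units, and within the window of 2000 to 4000 genes by 0.09.

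**Figure D1:**
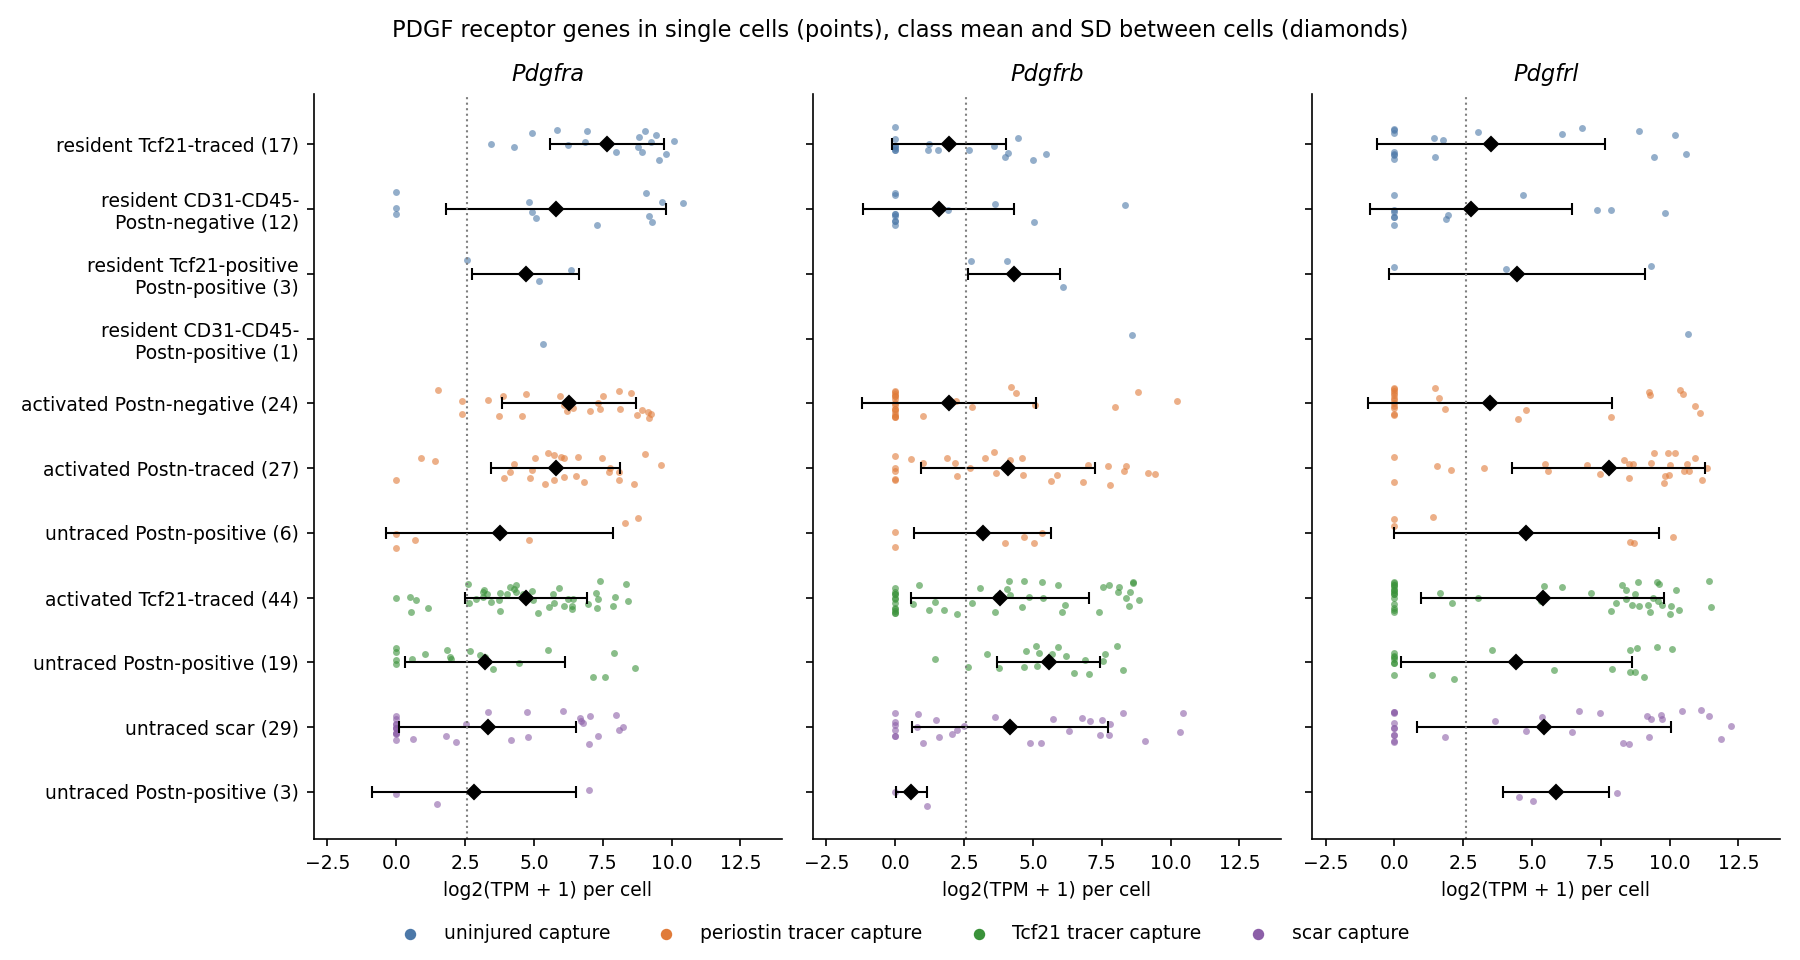
Log2 (TPM+1) of Pdgfra, Pdgfrb and Pdgfrl in each cell (points, coloured by capture), by class, with the number of cells in brackets. Diamonds and bars give the mean and SD between cells of classes with 3 or more cells, and the dotted line marks 5 TPM; resident Tcf21-traced cells hold the highest Pdgfra mean, 7.66, and untraced Postn-positive cells of the Tcf21 tracer capture a Pdgfrb mean of 5.57.

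Ordered by mean over all captures, Pdgfra ran from resident Tcf21-traced cells (7.66) through activated Postn-negative (6.28), resident CD31- CD45- Postn-negative (5.81), Postn-traced (5.79), the single resident Postn-positive CD31- CD45- cell (5.35), activated Tcf21-traced (4.71) and resident Tcf21-positive Postn-positive cells (4.70) to untraced scar (3.32) and untraced Postn-positive cells (3.29). Every neighbour in this order differed by less than the SD between cells. The 3 resident Tcf21-positive Postn-positive cells had values of 2.55, 5.20 and 6.35.

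Pdgfrb, the gene of the receptor that binds PDGF-B and PDGF-D, was detected in 101 cells (54.6%, interval 47.1% to 61.9%). Its order across classes was not that of Pdgfra. In resident Tcf21-traced cells it ran from 0.00 through a median of 1.21 to 5.46, and in activated Postn-negative cells from 0.00 through 0.00 to 10.22. In Postn-traced cells the median was 3.65 and the highest cell 9.43, and in activated Tcf21-traced cells 3.88 and 8.85. All of these classes held cells at 0.00, so they overlapped at the low end, and they differed in how many cells left it.

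Within the periostin tracer capture Pdgfrb had a higher log2 mean and was in a larger share of traced cells than of Postn-negative cells. The gene was detected in 17 of 27 Postn-traced cells (63%, interval 42.4% to 80.6%) and in 7 of 24 Postn-negative cells (29.2%, interval 12.6% to 51.1%). These intervals overlap, and the linear means were closer, at 104 TPM in Postn-traced and 82.3 TPM in Postn-negative cells. Mean levels were 4.10 ± 3.16 and 1.94 ± 3.17, a difference of 2.16 log2 units that is smaller than the SD between cells. Among cells above 5 TPM, a set that the difference itself selects, the means differed by -0.16. Genes above 5 TPM moved the same way, with medians of 3643 and 2342, and in cells with 2000 to 4000 genes the counts were 13 of 21 (61.9%) and 5 of 21 (23.8%).

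Among classes with 12 or more cells, the highest share with Pdgfrb was in untraced Postn-positive cells of the Tcf21 tracer capture. There the lowest cell was at 1.43, the median at 5.70 and the highest at 8.26, and 18 of 19 cells were above 5 TPM (94.7%, interval 74% to 99.9%). In the Tcf21-traced cells of that capture 26 of 44 were (59.1%, interval 43.2% to 73.7%), so these intervals did not overlap, and median genes above 5 TPM were close, at 3361 and 3134. The means were 5.57 ± 1.87 and 3.80 ± 3.25, which differ by 1.77 log2 units. Among cells above 5 TPM the difference was -0.32 and on the log2 of the linear mean it was -0.02. In the same capture Pdgfra differed by -1.50 log2 units, in the opposite direction, and among cells above 5 TPM by 0.13.

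This class was not uniform over captures. The 6 untraced Postn-positive cells of the periostin tracer capture had a Pdgfrb mean of 3.17 ± 2.50, with 4 cells above 5 TPM, and the 3 of the scar capture had 0.58 ± 0.57, with 0 above it. A count of 0 of 3 cells allows a share of up to 70.8%. Untraced scar cells had 15 of 29 cells above 5 TPM (51.7%, interval 32.5% to 70.6%). Of these, 2 were cells with fewer than 300 genes, in which Pdgfrb stood at 10.33 and 10.44.

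In resident cells Pdgfrb was low, with 7 of 17 Tcf21-traced cells (41.2%, interval 18.4% to 67.1%) and 3 of 12 CD31- CD45- Postn-negative cells (25%, interval 5.49% to 57.2%) above 5 TPM. The 4 resident cells classed as Postn-positive were an exception, and all of them had Pdgfrb, at 2.76, 4.08 and 6.09 in the Tcf21-positive cells and at 8.59 in the CD31- CD45- cell. From resident to activated Tcf21-traced cells the mean rose from 1.95 ± 2.06 to 3.80 ± 3.25, a difference of 1.85 log2 units, and among cells above 5 TPM the difference was 1.94. For Postn-traced against resident Tcf21-traced cells it was 2.15, and among cells above 5 TPM 1.87. Both are smaller than the SD of the infarct class.

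By mean over all captures, Pdgfrb ran from the single resident Postn-positive CD31- CD45- cell (8.59) through untraced Postn-positive (4.52), resident Tcf21-positive Postn-positive (4.31), untraced scar (4.17), Postn-traced (4.10) and activated Tcf21-traced (3.80) down to resident Tcf21-traced (1.95), activated Postn-negative (1.94) and resident CD31- CD45- Postn-negative cells (1.58). Apart from the single cell, neighbours differed by less than the SD between cells. The untraced Postn-positive mean of 4.52 pools captures. It was 5.57 in the Tcf21 tracer capture (n = 19), 3.17 in the periostin tracer capture (n = 6) and 0.58 in the scar capture (n = 3). The last of these lies below every class in this order.

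Mural cells are the best known source of Pdgfrb in the heart, so the pericyte list was read beside it. Of the 101 cells with Pdgfrb, 2 held 3 or more of the 7 pericyte genes, and the defining gene Rgs5 was above 5 TPM in 2 of 44 activated Tcf21-traced cells and 1 of 29 scar cells. Rgs5 was at 0 in every cell of the other classes. Other genes of the list were found more often, with Cspg4 in 8 of 44 activated Tcf21-traced and 4 of 28 untraced Postn-positive cells, and Notch3 in 5 of 28 of the latter. Summed over the list, the mean was 227 TPM in untraced scar cells and 20 TPM in them without the 2 cells that held 3 or more markers of another type, of which the scar cell with 5 pericyte genes is 1. It was 53.2 TPM in activated Tcf21-traced cells and 40.5 TPM without such cells, with Kcnj8 as the most abundant gene, 56.2 TPM in resident CD31- CD45- Postn-negative cells, 11 TPM in untraced Postn-positive cells of the Tcf21 tracer capture and 2.86 TPM in Postn-traced cells. Of the 56.2 TPM, Abcc9 gave 42.1 TPM, and it was above 5 TPM in 1 of those 12 cells, at 505 TPM. The list shared with contractile fibroblasts was more frequent. At least 3 of 7 smooth muscle genes, with Tagln the most abundant, were detected in 15 of 76 cells with both receptors, 4 of 65 with Pdgfra alone and 5 of 25 with Pdgfrb alone, while Myh11, the marker that defines smooth muscle, was above 5 TPM in 1 Postn-traced cell and 1 scar cell.

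Pdgfrl encodes a secreted PDGF receptor-like protein that has immunoglobulin domains and no kinase. It was detected in 107 cells (57.8%, interval 50.4% to 65%) and was close to all or none, with 62 cells at 0, 16 between 0 and 5 TPM and a median of 8.90 on the log2 (TPM+1) scale in the cells above it. Averaged over all cells its level of 442 TPM was the highest of the family, against 139 TPM for Pdgfra and 87.6 TPM for Pdgfrb. The gene lies at chr8:40926212-40990785 on the plus strand of GRCm38.

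Postn-traced cells had the most Pdgfrl apart from the single resident Postn-positive CD31- CD45- cell at 10.67. They ran from 0.00 through a median of 9.32 to 11.37, with 23 of 27 above 5 TPM (85.2%, interval 66.3% to 95.8%). The Postn-negative cells of the same capture ran from 0.00 through 0.74 to 11.09, with 9 of 24 above 5 TPM (37.5%, interval 18.8% to 59.4%). The intervals did not overlap, and the means, 7.79 ± 3.50 and 3.48 ± 4.44, differed by 4.31 log2 units, more than the SD of the traced cells and less than that of the negative cells. A larger difference in this pair was found for few genes, as 99.8% of the 13303 genes compared, not matched for detection, were lower. Among cells above 5 TPM, 23 and 9 of them, it was 0.26. In cells with 2000 to 4000 genes the counts were 17 of 21 and 9 of 21.

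Pdgfrl did not follow Pdgfrb in the Tcf21 tracer capture. There 10 of 19 untraced Postn-positive cells (52.6%) and 27 of 44 Tcf21-traced cells (61.4%) had it, and the means differed by -0.95 log2 units. Activated Tcf21-traced cells, at 5.38 ± 4.41, were 1.87 log2 units above resident Tcf21-traced cells at 3.51 ± 4.14 and differed by -2.40 from Postn-traced cells, both within the SD between cells. Postn-traced cells were 4.27 log2 units above resident Tcf21-traced cells, more than the SD of either class, with 23 of 27 against 7 of 17 cells above 5 TPM. Untraced scar cells had 18 of 29 (62.1%) and resident CD31- CD45- Postn-negative cells 4 of 12 (33.3%).

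Counted over all members, the share past 1 log2 unit could be set beside that of all genes above 5 TPM in at least 1 cell of a pair. This background, also used for the gene lists below, was not matched for detection. Pdgfra, Pdgfrl and Pdgfrb were detected in more cells than 96.6%, 92.6% and 91.6% of all genes, so a higher share of members is not a like comparison. Between Postn-traced and Postn-negative cells 3 of 6 members were past 1 log2 unit, where 22.5% of all genes were. These were Pdgfrb, Pdgfrl and Pdgfa, which were past it in 7 of 9, 8 of 9 and 5 of 8 alternatives. Pdgfa, at 1.04, was close to the threshold. Between untraced Postn-positive and Tcf21-traced cells of the Tcf21 tracer capture it was 2 of 6, against 9.72% of all genes. Between the resident classes, where Pdgfc and Pdgfd were above 5 TPM in no cell and were not compared, only Pdgfra passed, 1 of 4, close to the background of 21.8%.

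For the pairs that cross captures the counts were as follows. Activated against resident Tcf21-traced cells gave 4 of 6 members, against 23.1% of all genes. Postn-traced against resident Tcf21-traced cells also gave 4 of 6, against 27.1%. The same 4 genes, Pdgfra down and Pdgfrb, Pdgfrl and Pdgfa up, passed in both, and the pairs share the resident cells. Not all of these calls held under other settings. In either pair Pdgfa was past 1 log2 unit in 5 of 8 alternatives, with a lowest value of 0. For activated against resident Tcf21-traced cells Pdgfrl was past it in 7 of 9, with a lowest value of 0.77. Activated Postn-negative against resident CD31- CD45- Postn-negative cells gave 0 of 4, Pdgfc and Pdgfd again not being compared, against 20.7%. Untraced scar against activated Tcf21-traced cells gave 1 of 6, against 16.2%, and activated Tcf21-traced against Postn-traced cells 2 of 6, against 10.7%. The scar call was Pdgfra, past 1 log2 unit in 4 of 9 alternatives, with values from -2.51 to 1.11. In the last pair the calls were Pdgfra, at -1.08 close to the threshold, and Pdgfrl, each past it in 7 of 9.

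**Figure D2:**
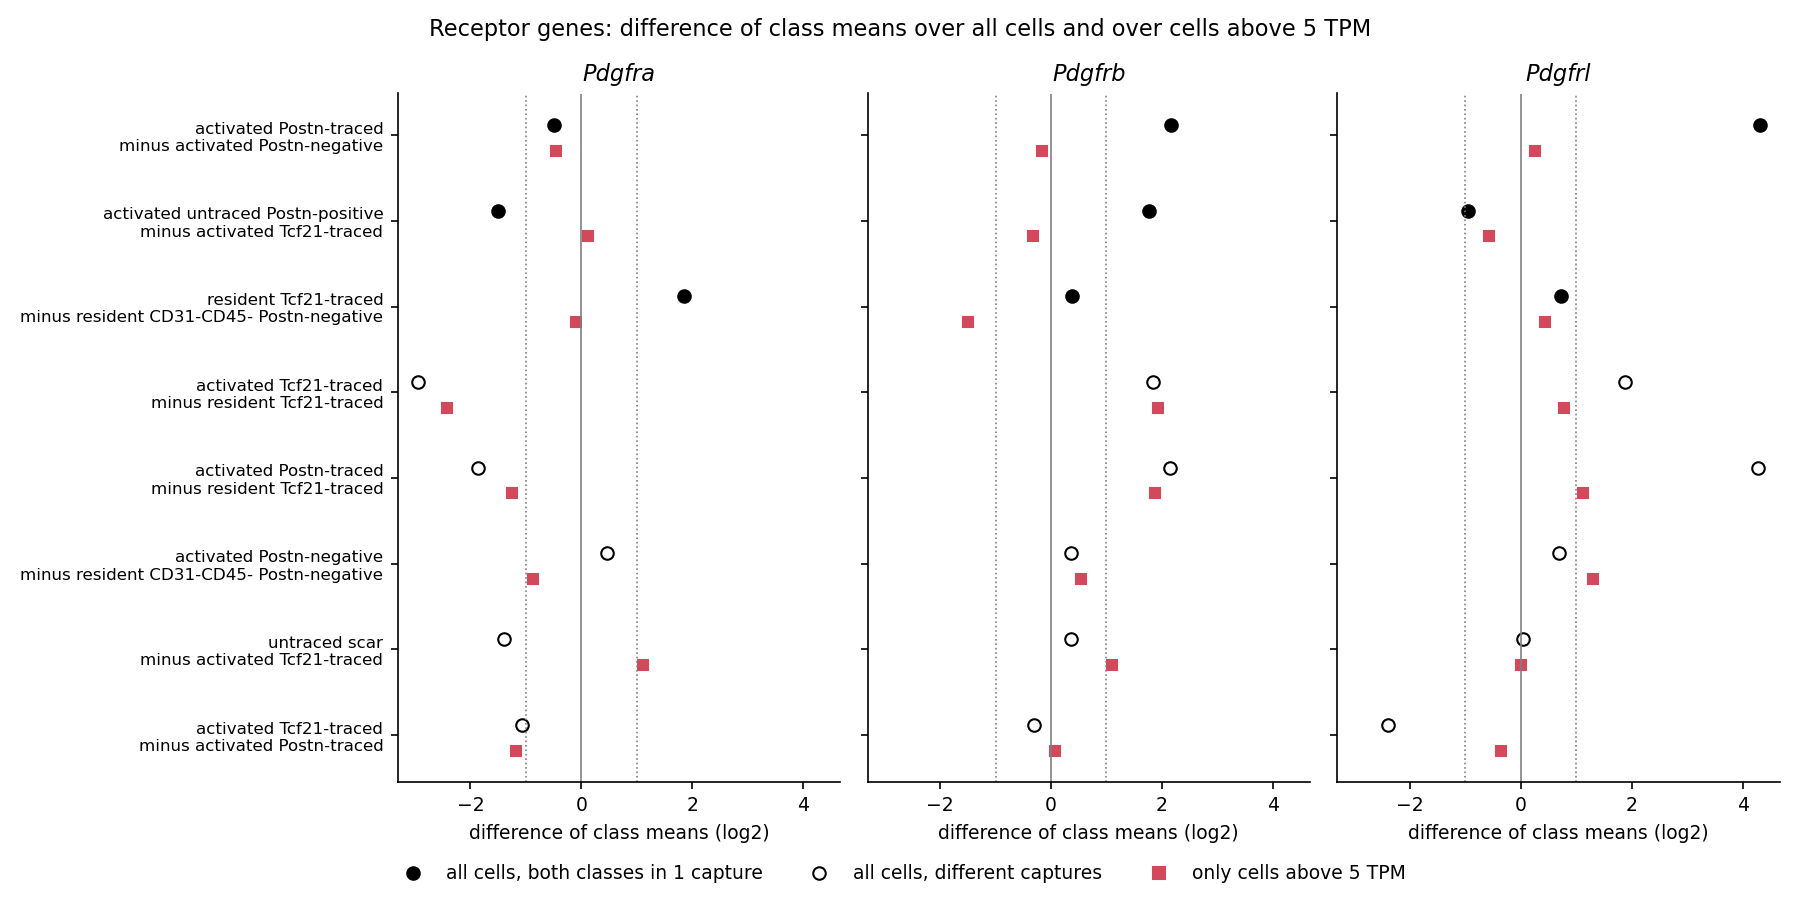
Difference of class means in log2 units for the 3 receptor genes in 8 pairs of classes, over all cells (circles, filled where both classes come from 1 capture) and over cells above 5 TPM (squares), with dotted lines at 1 log2 unit on either side of 0. For Pdgfrb and Pdgfrl in the Postn-traced against Postn-negative pair the circles stand at 2.16 and 4.31 and the squares near 0, at -0.16 and 0.26.

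Both receptor kinases were found together in 76 cells (41.1%, interval 33.9% to 48.5%). A further 65 cells had Pdgfra alone, 25 had Pdgfrb alone and 19 had neither. Pdgfrb was detected in 76 of 141 cells with Pdgfra (53.9%, interval 45.3% to 62.3%) and in 25 of 44 cells without it (56.8%, interval 41% to 71.7%). At this minimum Pdgfrb was about as frequent with Pdgfra as without it, while at any value over 0 the shares were 71.6% and 56.5%, and at 20 TPM they were 35.1% and 47.3%. Cells with both had a median of 3367 genes above 5 TPM, cells with Pdgfra alone 2559, cells with Pdgfrb alone 2611 and cells with neither 2030, and the part of gene number in these counts was not tested beyond the window of 2000 to 4000 genes, in which the shares were 51% and 65.4%.

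By class, all 17 resident Tcf21-traced cells had Pdgfra, so none could hold Pdgfrb alone, and 7 held both and 10 Pdgfra alone. Of the activated Postn-negative cells 7 held both, 14 Pdgfra alone, 0 Pdgfrb alone and 3 neither. Of the Postn-traced cells 15 had both, 9 Pdgfra alone, 2 Pdgfrb alone and 1 neither. Cells with Pdgfrb alone were thus few or absent in these infarct classes, in which most cells had Pdgfra.

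They were more frequent in untraced Postn-positive cells of the Tcf21 tracer capture and in scar cells. Among untraced Postn-positive cells of the Tcf21 tracer capture 9 had both, 9 Pdgfrb alone, 1 Pdgfra alone and 0 neither. Activated Tcf21-traced cells of that capture had both in 21 cells, Pdgfra alone in 18, Pdgfrb alone in 5 and neither in 0, so that all 63 cells of the capture had at least 1 of the receptor kinases. In this capture every one of the 14 cells without Pdgfra had Pdgfrb (lower bound 76.8%), against 30 of 49 with Pdgfra (61.2%, interval 46.2% to 74.8%). This joins classes that differ in Pdgfrb, and within each class the intervals overlapped, with 5 of 5 (lower bound 47.8%) against 21 of 39 (interval 37.2% to 69.9%) in Tcf21-traced cells and 9 of 9 (lower bound 66.4%) against 9 of 10 (interval 55.5% to 99.7%) in untraced Postn-positive cells. Untraced scar cells were spread over all states, with 8, 6, 7 and 8 cells holding both, Pdgfra alone, Pdgfrb alone and neither. Of the 8 with neither, 3 had fewer than 300 genes.

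**Figure D3:**
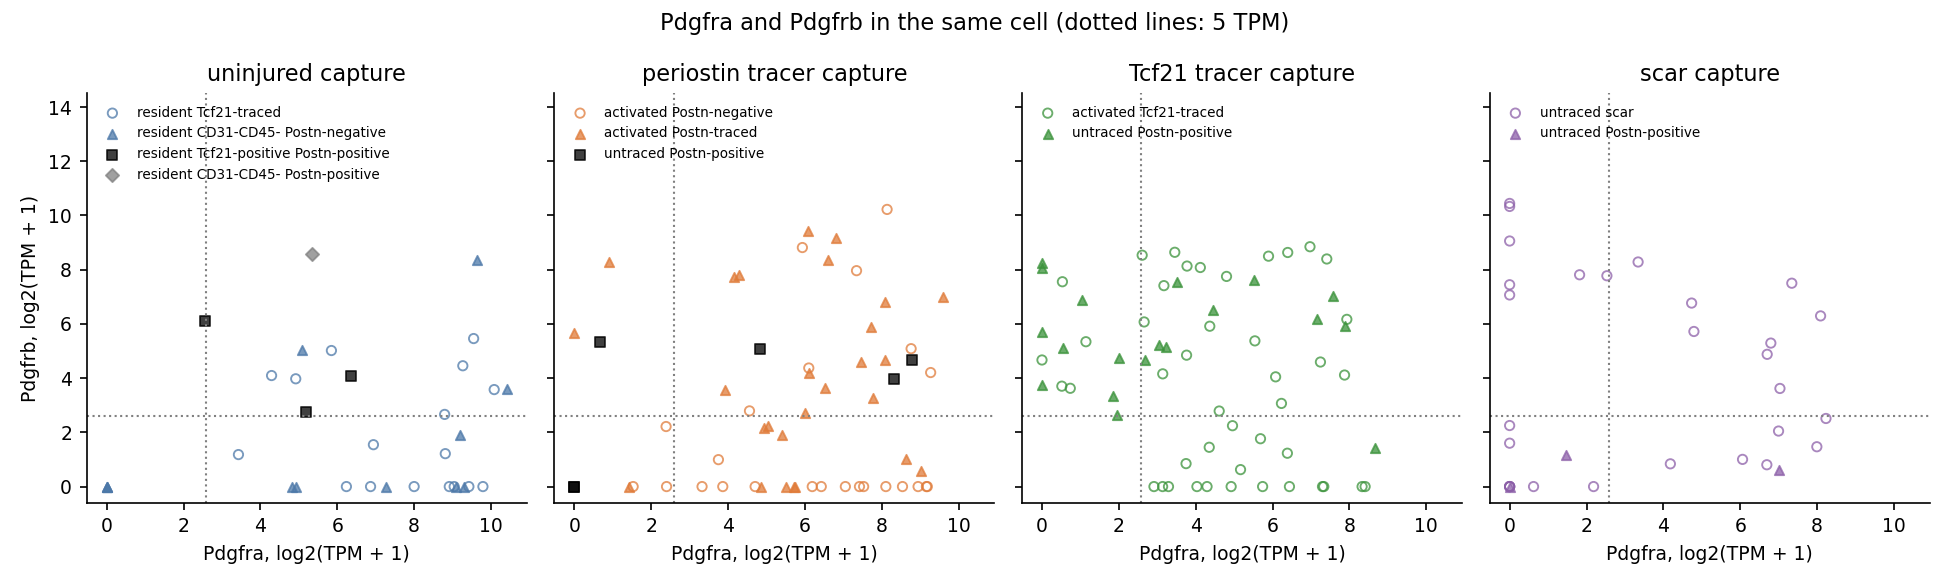
Log2 (TPM+1) of Pdgfra (horizontal) and Pdgfrb (vertical) in the same cell, with 1 panel per capture, a symbol per class and dotted lines at 5 TPM. In the Tcf21 tracer capture the lower left field is empty, with 0 of 63 cells below both lines, while the scar capture has 10 of 32 there.

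Within a cell the levels were nearly unrelated. Pearson's r of Pdgfra and Pdgfrb over all cells was -0.03 after the mean of each capture was subtracted, 0.07 in the capture of uninjured hearts, 0.10 in the periostin tracer capture, -0.21 in the Tcf21 tracer capture and -0.03 in the scar capture. Whether the cells of a capture shared a chip or a library preparation is not stated, and no p is given. For Pdgfrb and Pdgfrl it was 0.13 over all cells, with 0.51 over the 33 resident cells as the highest of any capture.

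Pdgfrl was more frequent in cells with Pdgfrb than in those without, 66 of 101 (65.3%, interval 55.2% to 74.5%) against 41 of 84 (48.8%, interval 37.7% to 60%), with overlapping intervals and with medians of 3258 and 2429 genes above 5 TPM. With respect to Pdgfra there was no such difference, at 81 of 141 (57.4%) and 26 of 44 (59.1%). All 3 receptor genes were detected in 48 cells and none in 11. Of the 27 Postn-traced cells 13 had all 3, and of the 24 Postn-negative cells 3.

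The ligand genes were found in few cells. Pdgfa, whose product binds the alpha receptor, was detected in 25 cells (13.5%, interval 8.94% to 19.3%), Pdgfd in 10 (5.41%, interval 2.62% to 9.72%) and Pdgfc in 7 (3.78%, interval 1.53% to 7.64%). Where present they were not faint, with medians on the log2 (TPM+1) scale of 6.00 for Pdgfa, 4.73 for Pdgfd and 5.78 for Pdgfc among cells above 5 TPM. Pdgfa lies at chr5:138976014-138997370 on the minus strand of GRCm38, Pdgfc at chr3:81036416-81214040 and Pdgfd at chr9:6168584-6378850, both on the plus strand.

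Pdgfa lies on the same chromosome as its receptor gene, and its promoter windows are shown for comparison. The receptor was detected in 141 cells and the ligand in 25. The window of Pdgfc, like that of Pdgfra, has no GC box and no TATA box, with the gene in 7 cells. That of Pdgfd has 1 TATA box, with the gene in 10. Only 4 members have a window, with none for Pdgfrb and Pdgfrl, and any link of motifs to detection was not tested. RefSeq gives 2 start regions of 300 bases on the minus strand, printed from 5′ to 3′ with GC boxes in capitals, as GGGCGG or its reverse complement, at chr5:138994232-138994531 and chr5:138994895-138995194.
Pdgfa, first window: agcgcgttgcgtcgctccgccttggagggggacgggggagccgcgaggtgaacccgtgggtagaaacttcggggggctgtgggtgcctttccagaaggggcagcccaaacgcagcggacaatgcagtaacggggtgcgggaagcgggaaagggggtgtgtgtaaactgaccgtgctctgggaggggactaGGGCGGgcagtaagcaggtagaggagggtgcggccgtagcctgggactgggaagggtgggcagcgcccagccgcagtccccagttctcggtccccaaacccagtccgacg
Pdgfa, second window: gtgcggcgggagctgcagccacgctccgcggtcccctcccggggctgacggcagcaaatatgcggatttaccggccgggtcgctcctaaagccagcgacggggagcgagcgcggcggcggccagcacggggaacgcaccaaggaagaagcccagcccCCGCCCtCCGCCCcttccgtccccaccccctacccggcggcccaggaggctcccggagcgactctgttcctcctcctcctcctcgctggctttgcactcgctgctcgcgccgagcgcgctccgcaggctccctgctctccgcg
The first has 1 GC box and a G+C content of 67%, and the second 2 GC boxes and 73.3%, higher than 85.6% and 94.5% of all promoter windows. The TATA box is in neither. A match is a run of letters and not a measured binding site.

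Almost all ligand-positive cells came from infarcts. At least 1 of the 3 ligand genes was detected in 38 of 152 infarct cells (25%, interval 18.3% to 32.7%) and in 1 of 33 cells of uninjured hearts (3.03%, interval 0.0767% to 15.8%), and these intervals did not overlap. The single resident cell was a CD31- CD45- Postn-negative cell with Pdgfa at 5.42. Infarct and resident cells differ in the number of genes detected and in capture, and in the window of 2000 to 4000 genes the counts were 20 of 105 (19%, interval 12% to 27.9%) and 0 of 23, which allows a share of up to 14.8%.

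Among infarct classes the ligands were not detected in Postn-negative cells, where 0 of 24 cells had any of them, allowing a share of up to 14.2%. In Postn-traced cells of the same capture 9 of 27 had a ligand gene (33.3%, interval 16.5% to 54%), 5 of them Pdgfa, 2 Pdgfc and 3 Pdgfd, with 1 cell holding more than 1 of the genes. Activated Tcf21-traced cells had 13 of 44 (29.5%, interval 16.8% to 45.2%), 9 of them with Pdgfa, but in cells with 2000 to 4000 genes Pdgfa was in 2 of 28 (7.14%) where over all it was in 20.5%. Untraced Postn-positive cells of the Tcf21 tracer capture had 8 of 19 (42.1%, interval 20.3% to 66.5%), 6 with Pdgfa and 3 with Pdgfc. Untraced scar cells had 6 of 29 (20.7%, interval 7.99% to 39.7%). The intervals of these Postn-traced, Tcf21-traced, untraced Postn-positive and scar cells overlapped. They are wide, so the overlap does not show that the classes are alike. Postn-negative cells stood below Postn-traced cells, but cells with a ligand gene had a median of 3905 genes above 5 TPM and those without 2558, and in the window of 2000 to 4000 genes the counts were 6 of 21 (interval 11.3% to 52.2%) and 0 of 21 (up to 16.1%), with overlapping intervals.

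As means over all cells these are small values. Pdgfa was highest in untraced Postn-positive cells of the scar capture (1.64 ± 2.84, n = 3) and of the Tcf21 tracer capture (1.55 ± 2.59, n = 19), followed by activated Tcf21-traced (1.44 ± 2.88) and Postn-traced cells (1.14 ± 2.60), and was 0.10 ± 0.48 in Postn-negative and 0.00 in resident Tcf21-traced cells. The highest single values were 10.43 for Pdgfa and 8.43 for Pdgfd, both in untraced scar cells, and 7.93 for Pdgfc in an activated Tcf21-traced cell. Class means of Pdgfc were at most 0.70, and those of Pdgfd at most 1.38, the latter from 1 of 6 untraced Postn-positive cells of the periostin tracer capture. None of the differences between classes exceeded the SD between cells of both classes.

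Cells with a ligand gene had a receptor kinase gene as often as other cells. Of the 39 cells with any ligand gene, 35 had Pdgfra or Pdgfrb (89.7%), as did 131 of the 146 cells without a ligand gene (89.7%). Pdgfa was detected in 18 of 141 cells with Pdgfra (12.8%, interval 7.74% to 19.4%) and in 7 of 44 without it (15.9%, interval 6.64% to 30.1%), so its presence did not follow that of its receptor. It was detected in 19 of 101 cells with Pdgfrb (18.8%, interval 11.7% to 27.8%) and in 6 of 84 without (7.14%, interval 2.67% to 14.9%), again with overlapping intervals. Cells with Pdgfa had a median of 4138 genes above 5 TPM and those without it 2641, and in the window of 2000 to 4000 genes the counts were 8 of 69 and 1 of 59. For Pdgfd, a ligand of the beta receptor, the counts over all cells were 6 of 101 with Pdgfrb and 4 of 84 without. Pdgfb, whose product also binds the beta receptor, was not among the rows and is in none of these ligand counts.

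**Figure D4:**
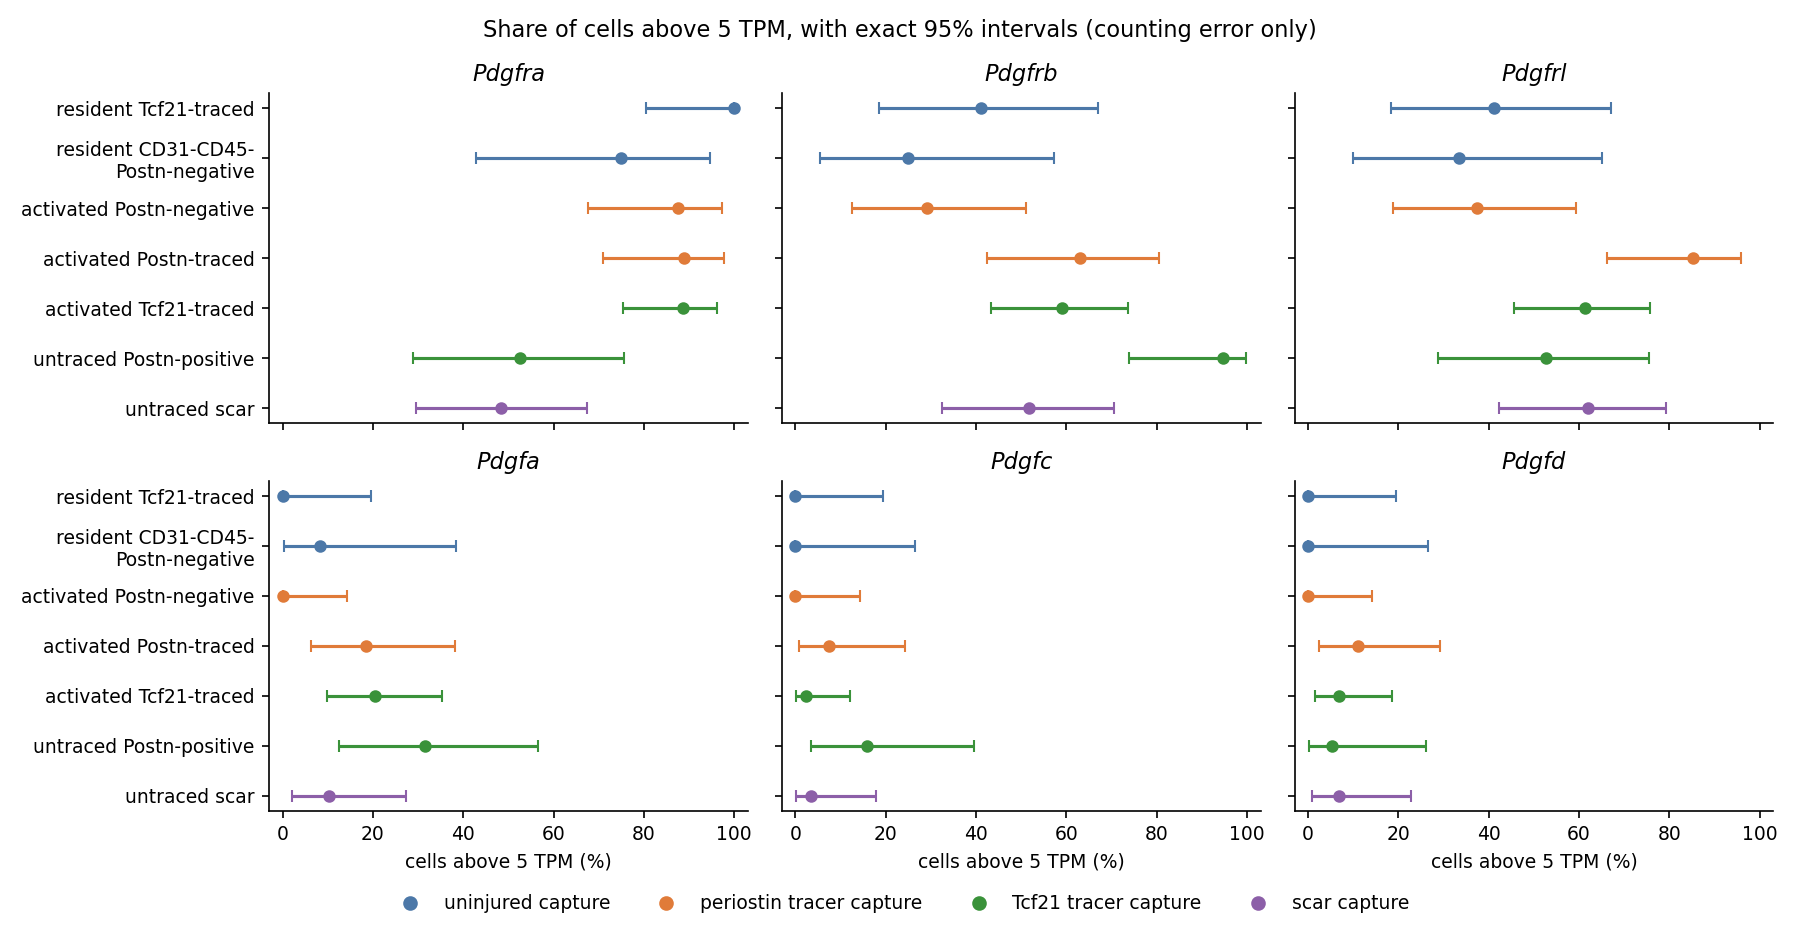
Share of cells above 5 TPM for the 3 receptor and 3 ligand genes in the 7 classes with 12 or more cells, the untraced Postn-positive class limited to the Tcf21 tracer capture. Bars are exact 95% intervals for counting error only and colours mark the capture; Pdgfrl reaches 85.2% in Postn-traced and 37.5% in Postn-negative cells, and the ligands stay at 0 of 24 in the latter.

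Genes that act around the receptors were read from 6 lists. Of 9 genes for ligand activation and extracellular partners, 3 were more than 1 log2 unit higher in Postn-traced than in Postn-negative cells and 0 lower, beside a background of 22.5% of genes in either direction. Sparc, a matrix protein that binds PDGF, was at 13.58 ± 0.44 in Postn-traced and 11.79 ± 0.69 in Postn-negative cells, a difference of 1.79 log2 units that exceeds the SD of both. Against resident Tcf21-traced cells, at 11.15 ± 0.85, Sparc was higher by 2.43 in Postn-traced and by 1.76 in activated Tcf21-traced cells. Thbs1, which encodes thrombospondin-1, differed by 1.89 log2 units between untraced Postn-positive and Tcf21-traced cells of the same capture, within its SD of 3.24 and 3.73.

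Nrp1, a co-receptor for several growth factors, was lower by more than 1 log2 unit in activated Tcf21-traced (-1.67) and Postn-traced cells (-1.33) against resident Tcf21-traced cells, the direction of Pdgfra. Its largest difference, 2.85, was within the uninjured capture, where resident Tcf21-traced cells were above resident CD31- CD45- Postn-negative cells. Furin, a protease that cleaves growth factor precursors, was above 5 TPM in 16 of 44 activated Tcf21-traced, 7 of 27 Postn-traced and 0 of 17 resident Tcf21-traced cells. Among related growth factors and receptors, Pgf (placental growth factor) was detected in 13 of 24 Postn-negative and 4 of 27 Postn-traced cells, a difference of -4.10 log2 units. Figf, the gene of VEGF-D, was detected in 12 of 27 Postn-traced, 3 of 24 Postn-negative and 0 of 17 resident Tcf21-traced cells.

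Receptor-proximal signalling genes numbered 18. Between Postn-traced and Postn-negative cells 5 were more than 1 log2 unit higher and 1 lower, beside 22.5% of all genes, and their median difference of 0.55 stood beside 0.30 for all genes. In the Tcf21 tracer capture, of 17 compared, 2 were higher and 1 lower (9.72% of all genes) for untraced Postn-positive against Tcf21-traced cells, where Fyn, a Src-family kinase, had the largest difference, at 2.08. Between activated and resident Tcf21-traced cells 6 of 17 were higher and 1 lower, beside 23.1% of all genes in either direction, among them Ptpn11, the phosphatase SHP2, detected in 21 of 44 and 1 of 17 cells. Other pairs differed from this: Postn-traced against resident Tcf21-traced cells gave 2 higher and 0 lower of 17, beside 27.1% of all genes, and scar against activated Tcf21-traced cells 0 higher and 4 lower, beside 16.2%. In the scar pair most genes that passed were lower, 2079 of 2254. The part that was higher went from 7.76% to 39.5% without low-gene cells and to 66.2% in the window of 2000 to 4000 genes. The lists were not recounted in these settings. The largest differences in the list were those of Stat3, at 3.18 for resident Tcf21-traced against resident CD31- CD45- Postn-negative cells, and of Rasa1, at 2.81 for activated against resident Postn-negative cells.

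Of the 11 genes of the Ras-MAPK and Akt arm, 5 were higher and 0 lower in Postn-traced than in Postn-negative cells, and 4 were higher and 0 lower in activated than in resident Tcf21-traced cells, with median differences of 0.66 and 0.81. Of all genes 22.5% and 23.1% passed, with medians of 0.30 and 0.27, and most of those that passed were also higher, 2629 of 2998 and 2654 of 3071. Postn-traced against resident Tcf21-traced cells gave 3 higher and 0 lower, beside 27.1% of all genes, and scar against activated Tcf21-traced cells 0 higher and 3 lower, beside 16.2%. In the scar pair 2079 of the 2254 genes that passed were lower. In the window of 2000 to 4000 genes this turned to 1252 higher and 639 lower. Nras was at 7.14 ± 1.68 in Postn-traced cells, all 27 of them above 5 TPM, and at 3.07 ± 3.48 in resident Tcf21-traced cells, a difference of 4.07 log2 units that exceeds both SDs. Mapk3 differed by 2.30 between activated and resident Postn-negative cells and by 2.24 between untraced Postn-positive and Tcf21-traced cells of the Tcf21 tracer capture. Akt1 was detected in 13 of 27 Postn-traced, 4 of 24 Postn-negative and 2 of 17 resident Tcf21-traced cells.

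Genes that attenuate the receptors went both ways. Of 11, 2 were higher and 3 lower in Postn-traced than in Postn-negative cells, and 3 were higher and 2 lower in activated than in resident Tcf21-traced cells, beside 22.5% and 23.1% of all genes. The lower ones included Spry4, an inhibitor of the Ras-MAPK cascade that this cascade induces, at -2.10 and -1.83 log2 units in these pairs, and Socs3, at -2.13 and -2.22. Ptpn2 was detected in 16 of 27 Postn-traced and 2 of 17 resident Tcf21-traced cells, and Spry2 in 42 of 44 activated Tcf21-traced and 19 of 29 scar cells. Dusp6 was higher by 1.55 in activated than in resident Tcf21-traced cells, and lower by 2.43 in the latter than in resident CD31- CD45- Postn-negative cells.

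All 7 immediate early genes were past 1 log2 unit between activated and resident Tcf21-traced cells, 2 higher and 5 lower, beside a background of 23.1%. Egr1 was at 9.15 ± 3.30 in activated and 11.99 ± 1.30 in resident cells, and Jun at 6.35 ± 2.64 and 8.90 ± 1.08. Ier3 and Myc were the higher ones, with Ier3 detected in 31 of 44 activated and 6 of 17 resident cells. The same 7 genes passed in the Postn-traced against resident Tcf21-traced pair, which shares the resident cells, and 2 were lower and 1 higher between the infarct classes of the periostin tracer capture. These genes respond to many stimuli and to the handling of cells, and the part of PDGF signalling in them was not tested.

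Among 5039 genes detected in at least 20% of cells, the profiles most like Pdgfra over all cells, after the capture mean was subtracted, were those of Ifitm3 (r = 0.41), Serping1 (0.41), Mgst1 (0.40), Ly6a (0.40) and Zscan26 (0.39). For Pdgfrb they were Lxn (0.35), Actn1 (0.34), Runx1 (0.34), Mfap2 (0.33) and Col6a3 (0.32). These values are weak, come from cells that share captures and vary in the number of genes detected, and are given as a description. With ranks in place of values 2 of the 5 were kept for either gene, and r with Ifitm3 was 0.19. Without subtracting capture means 2 were kept for Pdgfra and 3 for Pdgfrb. No gene was on both lists.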

How the data were processed

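RNA of 185 single cells was measured, each a GEO sample. The log2 (TPM+1) values were deposited by the authors, who per their processing notes aligned reads to mm10 with Bowtie 1.0.0 and estimated abundance with eXpress 1.5.1; the values sum to between 999257 and 1000000 TPM per cell, although the table's title says FPKM. Left out were 3 columns of the table that match no sample. Cells were grouped by label and by the capture in their names. Means, SDs, shares above 5 TPM, exact intervals and Pearson correlations were computed with SciPy 1.17.1 and pandas 2.3.3 under Python 3.11.15 (NumPy 2.4.6; figures, Matplotlib 3.10.9), with code tested on simulated data. All members were named, and in each pathway list at most 5 genes past 1 log2 unit in the same direction in at least 2 pairs, by size. Members and lists were chosen with earlier results of these data known. Alternatives were pseudocounts, gene filters, minimum TPM, detected cells only, medians, linear means, centring, low-gene cells left out, 2 log2 units for pathway lists, other correlations and, chosen after seeing the data, a window of 2000 to 4000 genes and cells with markers of other types left out.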

Additional observations from a re-analysis of the deposited data

How the results depend on the processing

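Of 14 receptor differences past 1 log2 unit, 9 kept their sign under all 9 alternatives and 5 also stayed past 1 log2 unit. Lower Pdgfra in activated than in resident Tcf21-traced cells was among these, between -4.09 and -2.42. Limited to cells above 5 TPM, the difference for Postn-traced against Postn-negative cells was -0.16 for Pdgfrb and 0.26 for Pdgfrl, for untraced Postn-positive against Tcf21-traced cells of the Tcf21 tracer capture 0.13 for Pdgfra and -0.32 for Pdgfrb, and for Pdgfra -0.0888 between the resident classes and 1.11 for scar against activated Tcf21-traced cells; this setting leaves out the cells without the gene, in which these classes differ. With medians over cells Pdgfrl differed by 8.58 in the first pair, and with linear means Pdgfrb by -0.0225 in the second. In the window of 2000 to 4000 genes, chosen after seeing the data, Pdgfra differed by -0.0698 between the resident classes and by 0.0860 for scar against activated Tcf21-traced cells; the cause was not tested. Other differences of the receptors and ligands moved by less than 1 SD in 206 and 180 values and by more in 21.

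Shares followed the minimum. Pdgfra was in 100% of Postn-negative cells at 1 TPM and at any value over 0, in 97.7% of activated Tcf21-traced cells at any value and 52.3% at 20 TPM, and in 78.9% of untraced Postn-positive cells of the Tcf21 tracer capture at any value. Pdgfrb was in 81.5% of Postn-traced cells at any value, in 43.2% of activated Tcf21-traced cells at 20 TPM and in 100% of those untraced cells at 1 TPM and at any value. Among cells with Pdgfra it was in 66.5% at 1 TPM, 71.6% at any value and 35.1% at 20 TPM, and among cells without Pdgfra in 63.3%, 56.5% and 47.3%; at 5 TPM these shares were 53.9% and 56.8%.

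Counts of all genes past 1 log2 unit moved more. In the order in which the pairs appear in the report they were 2998, 1321, 2391, 3071, 3537, 2433, 2254 and 1505. With a pseudocount of 0.1 they were 5165, 3100, 4223, 5202, 5761, 4291, 4143 and 3280, with 5 they were 1497, 472, 1206, 1559, 1796, 1256, 1102 and 570, and with linear means 7239, 6039, 7245, 7688, 7871, 7604, 6701 and 6001. Centring each cell on its median gene gave 5396 for the first, 4814 and 5735 for activated and for Postn-traced against resident Tcf21-traced cells and 7156 for the scar pair, medians gave 1325 for the resident and 1422 for the Postn-negative pair, and the window gave 2311 for the second. Centring moved the median of all genes to between -1.01 and 0.86, from between -0.18 and 0.36, and the part that was higher in the second pair from 60.2% to 85.2%, while linear means moved it to 41.1%. In the scar pair that part was 7.76%, and it was 39.5% with low-gene cells left out and 66.2% in the window, so the direction of most calls turned in both pairs. Under centring no receptor difference past 1 log2 unit changed sign. With a threshold of 2 log2 units in place of 1, the only alternative tried for the pathway lists, 40 of their counts moved by over 1.5 times and 8 did not. TPM gives no read depth, a gene at 0 may have been missed, and class, injury and capture cannot be told apart across captures.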

Other observations

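Of the 8 cells that held 3 or more markers of a cell type other than fibroblasts or smooth muscle, 2 held pericyte genes. The scar cell with 5 of 7 pericyte genes had Pdgfrb at 9.06, Pdgfrl at 9.71 and Pdgfa at 8.44 with Pdgfra at 0, and the activated Tcf21-traced cell with 3 of 7 had Pdgfrb at 7.56 and Pdgfa at 7.32 with Pdgfra at 0.53. Both thus had the beta receptor with a ligand of the alpha receptor. This was not particular to them, as 19 cells with Pdgfa had Pdgfrb and 6 did not. The scar cell with 3 of 7 myeloid genes also had both, with Pdgfa at 4.49 and Pdgfrb at 6.77. The Postn-negative cell with 5 of 6 epicardial genes had Pdgfra at 4.56 and Pdgfrb at 2.79, the scar cell with 3 of 7 myeloid genes had all 3 receptor genes, and both cells with cardiomyocyte genes had Pdgfra and Pdgfrl, combinations that many other cells had. The resident cell with 6 of 7 myeloid genes had no member above 5 TPM, and the untraced Postn-positive cell with 5 of 6 Schwann cell genes had every member at 0. Each is a single cell.

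Of the 25 cells with Pdgfrb and without Pdgfra, 20 had none of the 7 pericyte genes, and so did 62 of 76 cells with both receptors, 56 of 65 with Pdgfra alone and 16 of 19 with neither. In 2 of the 25 cells fewer than 300 genes were above 5 TPM, where absence says little. The median number of fibroblast genes was 7 in the cells with Pdgfrb alone, 7.5 in cells with both receptors and 8 in cells with Pdgfra alone. Pdgfrl accompanied Pdgfrb without Pdgfra in 18 of the 25.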
